A study of Mus musculus with 22 samples.

Results

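The genes described here are 9 components of the epithelial tight junction: the claudins Cldn1, Cldn2, Cldn3, Cldn4, Cldn7 and Cldn8, occludin (Ocln), the junctional adhesion molecule F11r (JAM-A) and the scaffold protein Tjp1 (ZO-1). They were chosen by name, as all probe sets of the mouse MG-U74v2 array set annotated with one of these symbols and no other. This gave 20 of 36701 probe sets, with 12, 4 and 4 on chip types A, B and C, for 9 of 15964 named genes.

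Tight junctions seal the space between neighbouring epithelial cells near their apical border. Claudins are membrane proteins whose strands form the seal and set which ions pass, occludin and JAM-A lie in the same membrane domain, and ZO-1 ties the strands to the actin cytoskeleton. In the mammary gland the luminal cells carry these junctions, and Cldn5 is the claudin best known from endothelium.

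Total RNA was read on Affymetrix arrays, on which each transcript is measured by a set of oligonucleotide probes. The tumour groups were mammary gland tumours that a Her2/Neu transgene (for the receptor ErbB2) had induced in mice labelled PEA3-null (2 RNA samples, of which 1 was also read on chip C) and in mice wild type for PEA3 (3 RNA samples, 2 on chip C). The third group was normal mammary gland of the FVB strain (3 RNA samples on every chip type), for which no transgene is named in the labels. PEA3 is an ETS-family transcription factor encoded by Etv4. Tumour and normal RNA are labelled as pools. The normal arrays are titled Pool 1, Pool 2 and Pool 3, while all arrays of a group carry a single submitter sample identifier. The replicates may thus be separate pools or repeat preparations of 1 pool, and the labels do not settle which. If they are repeat preparations, the p-values rest on preparation spread, which may be technical. All groups are labelled as sorted for the surface marker Sca-1. The transgene's promoter, the part of Pea3 that was deleted and the age of the mice are not given in the sources used here.

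The 22 arrays had 6891 to 8415 probe sets at a scaled signal of 150 or more. The 3'/5' signal ratio of the Gapdh control probe sets, a measure of RNA integrity, was 2.58 to 6.08 on normal arrays and 0.91 to 1.25 on tumour arrays. That of the actin control probe sets was 1.28 to 2.14 on normal arrays. It was 1.15 to 1.66 on wild-type tumour arrays, which overlaps the normal range, and 1.14 to 1.26 on PEA3-null arrays. Normal sample 3 had the highest ratios, 5.25 to 6.08 for Gapdh and 1.95 to 2.14 for actin. Tumour and normal arrays never shared a scan day, so the day of scanning and the tissue cannot be told apart. Summed signal of 10 luminal epithelial markers was 31350 to 39299 in wild-type tumours, 35121 to 35413 in PEA3-null tumours and 8313 to 9927 in normal glands. The 6 adipocyte markers summed to 1467 to 2457 in tumours and 51748 to 55208 in normal glands, and the 7 skeletal muscle markers to 1622 to 5559 and 164776 to 169930. The 6 leukocyte markers summed to 2069 to 5099 in tumours and 18814 to 21124 in normal glands, and the 5 basal and myoepithelial markers to 1299 to 2071 and 4527 to 5281. In wild-type tumours all 6 adipocyte, all 7 muscle, 5 leukocyte and 2 basal markers fell and none of these lists had a marker that rose. The labelled sort for Sca-1 could not be checked through its own gene, since Ly6a had no tested probe set. The muscle and adipocyte sums above show that the normal-gland RNA held much signal of muscle and fat markers, whatever sort was made. In such bulk RNA more cells of a type and more RNA per cell cannot be told apart, and the part of tissue makeup and RNA integrity in the differences below was not tested.

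Etv4 itself did not separate the genotype labels. Its probe set 92979_at read 507 and 273 in tumours labelled PEA3-null, 415, 356 and 357 in wild-type tumours, and 115, 177 and 152 in normal glands. The second Etv4 probe set, 161842_r_at, read 465 and 725 in PEA3-null tumours, 917, 363 and 944 in wild-type tumours and 934, 612 and 832 in normal glands. Such a reading is no check of the label where the probes lie outside the deleted stretch, and probe positions were not used here. PEA3-null and wild type are used below as the labels give them.

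The promoters of Cldn3, Cldn4 and Cldn7 are shown because the signals of these 3 claudins followed each other most closely over the 8 RNA samples, with a Pearson r of 0.998 between Cldn3 94493_at and Cldn7 99561_f_at and of 0.995 between Cldn4 and the second Cldn3 probe set, 162315_f_at. Each window runs from 250 bases before to 50 after the transcript start (RefSeq, GRCm38.p6), 5′ to 3′ on the gene's strand, and capitals mark GGAA, the core of ETS binding sites, on either strand. Cldn3 lies at chr5:134985964-134986263 on the plus strand, Cldn4 at chr5:134946885-134947184 on the minus strand and the first listed Cldn7 start at chr11:69964529-69964828 on the plus strand.
Cldn3: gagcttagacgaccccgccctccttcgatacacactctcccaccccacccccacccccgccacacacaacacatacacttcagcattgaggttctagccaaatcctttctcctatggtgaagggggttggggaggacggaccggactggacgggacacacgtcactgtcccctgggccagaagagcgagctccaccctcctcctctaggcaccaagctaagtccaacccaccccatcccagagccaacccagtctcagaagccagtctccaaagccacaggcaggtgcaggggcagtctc
Cldn4: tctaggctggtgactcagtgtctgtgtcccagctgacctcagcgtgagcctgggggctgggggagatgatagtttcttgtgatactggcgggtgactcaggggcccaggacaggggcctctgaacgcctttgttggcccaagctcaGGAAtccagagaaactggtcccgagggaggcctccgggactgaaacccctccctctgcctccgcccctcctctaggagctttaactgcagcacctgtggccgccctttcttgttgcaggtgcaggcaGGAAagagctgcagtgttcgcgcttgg
Cldn7: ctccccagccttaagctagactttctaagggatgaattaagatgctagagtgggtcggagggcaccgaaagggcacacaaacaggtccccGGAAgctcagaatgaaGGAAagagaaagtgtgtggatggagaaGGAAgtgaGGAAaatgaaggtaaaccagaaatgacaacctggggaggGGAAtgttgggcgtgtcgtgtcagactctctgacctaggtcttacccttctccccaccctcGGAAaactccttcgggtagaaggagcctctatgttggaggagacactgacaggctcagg
The Cldn3 window held 0 GGAA matches, the Cldn4 window 2 and this Cldn7 window 6. GGAA is short, and 96% of 32851 promoters of this length held it, with a median of 3 matches. The longer ETS motif AGGAAG, on either strand and overlapping GGAA, was found in 35.4% of promoters, with 0 matches in the Cldn3 and Cldn4 windows and 1 in the first Cldn7 window. The window of the second listed Cldn7 start, not shown, held 5 GGAA and 2 AGGAAG matches. No window was available for Cldn8. Of the windows of Cldn1, Cldn2, F11r, Ocln and Tjp1, that of Cldn2 held the most, with 8 GGAA and 2 AGGAAG matches. The transcript starts of Cldn3 and Cldn4 lie 39.3 kb apart on chromosome 5. A match describes letters in the window and says nothing of binding.

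Tumours were set against normal glands to ask which tight junction genes differ between Her2/Neu tumours and normal mammary tissue. Cldn3, Cldn4 and Cldn7 rose several-fold in tumours of both genotypes on every probe set tested, with Cldn3 rising 18.0-fold in wild-type tumours. Cldn1, Cldn8 and Ocln also rose, though for Cldn8 and Ocln not on every probe set. The Cldn1 and Ocln probe sets that rose, and Cldn8 114411_at, were under 150 in every normal gland. They passed the filter on low signal through tumours alone. Tjp1, the scaffold that binds claudins from inside the cell, fell to 0.477 of its normal level, and F11r differed between its probe sets. Cldn2 was below 150 on every array and was not tested.

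Calls were made by limma at a Benjamini-Hochberg adjusted p under 0.05 over all probe sets tested. Folds are antilogs of differences in log2(signal + 32), which understates those of dim probe sets. In wild-type tumours against normal glands 13 of the 18 member probe sets tested rose, 1 fell and 4 did not pass, where 20.9% of 28138 probe sets were called, 10.5% higher and 10.4% lower. In PEA3-null tumours against normal glands, over chips A and B, 10 of 14 rose, 1 fell and 3 did not pass, where 24.7% of 19214 probe sets were called, 12.3% higher and 12.5% lower. These comparisons share the normal arrays. Of the 18 probe sets, 7 reached 150 on no normal array and passed the filter on low signal through tumours alone. They were Cldn1 160415_at and 97546_at, Cldn3 162315_f_at, Cldn8 93146_at and 114411_at, and Ocln 92907_at and 112074_at. These counts thus describe the members and are no support for a rise of the group.

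**Figure D1:**
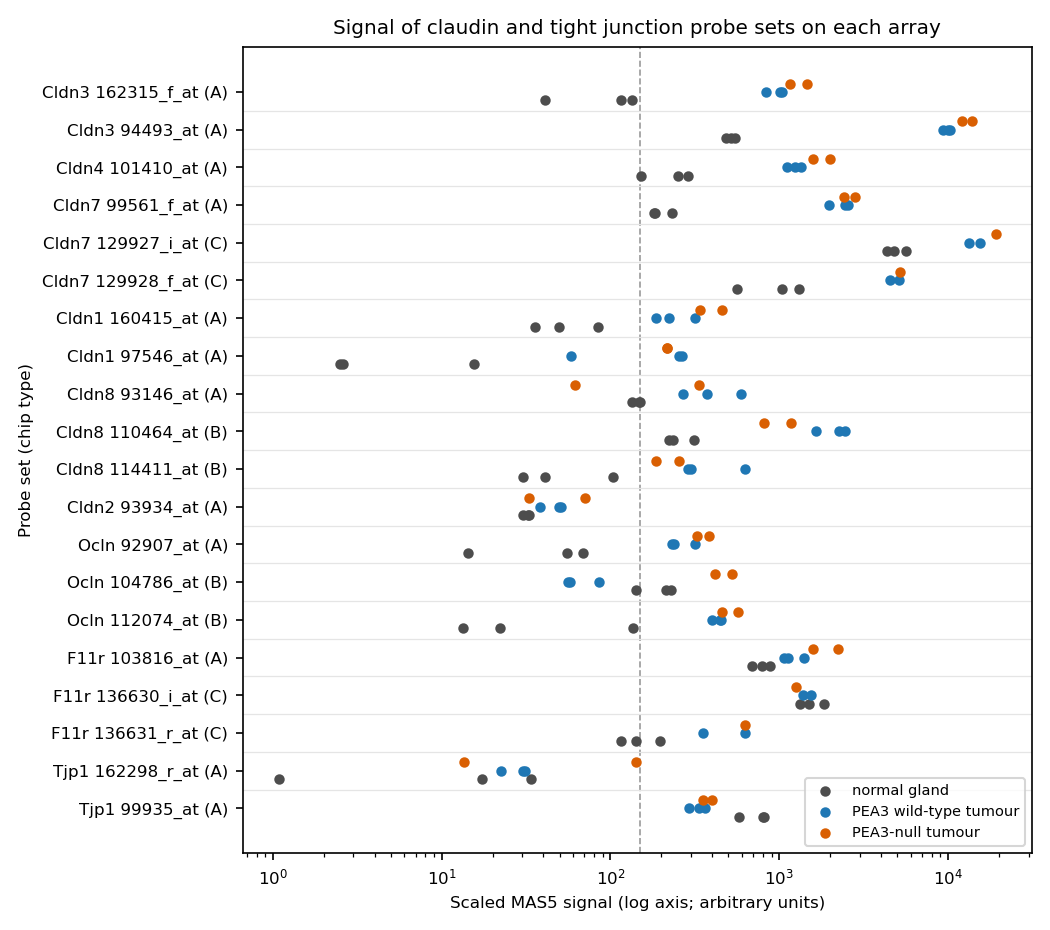
Scaled signal (arbitrary units, log axis) of all 20 member probe sets on each array, one point per array, with chip type in brackets and the filter level of 150 as a dashed line. The tumour points of Cldn3, Cldn4 and Cldn7 lie above every normal point, and those of Tjp1 99935_at, from 291 to 402, lie below the normal range of 580 to 814.

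Cldn3, a claudin of many simple epithelia and a receptor for Clostridium perfringens enterotoxin, had the largest difference among the members on the log2(signal + 32) scale. The added 32 shrinks the differences of probe sets under 150 in every normal gland, such as those of Cldn1. Cldn3 is thus not ranked by fold against such probe sets. The Cldn3 probe set 94493_at read 9279, 10259 and 9994 in wild-type tumours, 12105 and 13777 in PEA3-null tumours, and 520, 485 and 549 in normal glands. Every tumour array was far above every normal array, and the normal arrays were close to each other. The log2 difference from normal was 4.17 (SE 0.12, 18.0-fold, limma adjusted p = 4.26e-09) in wild-type tumours and 4.56 (SE 0.14, 23.6-fold, limma adjusted p = 1.15e-08) in PEA3-null tumours. The second Cldn3 probe set, 162315_f_at, read 1015, 1032 and 835 in wild-type tumours, 1160 and 1466 in PEA3-null tumours, and 41.0, 135 and 115 in normal glands. It rose by 3.02 on the log2 scale in wild-type tumours (limma adjusted p = 2.52e-05) and by 3.46 in PEA3-null tumours (limma adjusted p = 2.32e-05), with all normal values below 150.

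Cldn4, the other enterotoxin-binding claudin, read 1354, 1111 and 1232 in wild-type tumours, 1579 and 1998 in PEA3-null tumours, and 152, 289 and 251 in normal glands. No tumour array came near the normal range. The rise was 4.93-fold in wild-type tumours (log2 2.30, SE 0.23, limma adjusted p = 2.24e-05) and 7.07-fold in PEA3-null tumours (log2 2.82, SE 0.25, limma adjusted p = 1.25e-05).

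Cldn7, a claudin found both at tight junctions and along the basolateral membrane, was read by 3 probe sets on chips A and C. The suffix _f_at marks probes shared by a family of similar sequences, so such probe sets may also read related transcripts. On chip A, 99561_f_at gave 1962, 2453 and 2541 in wild-type tumours, 2412 and 2794 in PEA3-null tumours, and 181, 183 and 230 in normal glands. This was 10.2-fold higher in wild-type tumours (log2 3.35, SE 0.17, limma adjusted p = 1.53e-07) and 11.5-fold higher in PEA3-null tumours (log2 3.52, SE 0.19, limma adjusted p = 3.43e-07). On chip C, 129927_i_at read 13352 and 15359 in wild-type tumours, 19262 on the lone PEA3-null array, and 5602, 4777 and 4340 in normal glands. Its rise in wild-type tumours, 2.92-fold (limma adjusted p = 0.000358), was smaller in size than that on chip A. The third, 129928_f_at, read 4518 and 5111 in wild-type tumours, 5224 on the PEA3-null array, and 561, 1043 and 1300 in normal glands, a 5.11-fold rise in wild-type tumours (limma adjusted p = 0.00107). The 3 probe sets kept one order of groups, with correlations of 0.91 to 0.98 over the 6 RNA samples they share, and their folds ranged from 2.92 to 10.2.

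Cldn1, a claudin needed for the skin barrier, was dim in normal glands, and its probe sets passed the filter on low signal through tumours alone. Its probe set 160415_at read 185, 223 and 317 in wild-type tumours, 340 and 460 in PEA3-null tumours, and 84.4, 35.7 and 49.4 in normal glands. Tumours and normal glands did not overlap, and the rise was 3.11-fold in wild-type tumours (log2 1.64, SE 0.36, limma adjusted p = 0.00651) and 4.96-fold in PEA3-null tumours (limma adjusted p = 0.0014). Probe set 97546_at read 58.0, 267 and 256 in wild-type tumours, 216 and 215 in PEA3-null tumours, and 2.6, 15.5 and 2.5 in normal glands. One wild-type tumour was thus well below the other tumours, though above the normal glands. Its log2 differences were 2.36 (SE 0.53, limma adjusted p = 0.00705) and 2.69 (SE 0.59, limma adjusted p = 0.00594). Without the 2 normal arrays of chip A whose wash record was aborted, both Cldn1 calls in wild-type tumours and that of 97546_at in PEA3-null tumours were lost (limma adjusted p = 0.0606 to 0.0835), at log2 differences of 1.72 and 2.52 in wild-type and 2.84 in PEA3-null tumours that were no smaller than the reported ones.

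Cldn8, a claudin of the distal nephron and other tight epithelia, rose in wild-type tumours on 2 of its 3 probe sets. Its probe set 110464_at read 2453, 1641 and 2264 in wild-type tumours, 1175 and 815 in PEA3-null tumours, and 313, 223 and 235 in normal glands. The 3 groups formed separate ranges with the PEA3-null tumours in between. The rise was 7.41-fold in wild-type tumours (log2 2.89, SE 0.27, limma adjusted p = 6.39e-06) and 3.53-fold in PEA3-null tumours (log2 1.82, SE 0.30, limma adjusted p = 0.000716). Probe set 114411_at read 299, 286 and 625 in wild-type tumours, 253 and 186 in PEA3-null tumours, and 30.2, 103 and 40.9 in normal glands. It rose 4.84-fold in wild-type tumours (limma adjusted p = 0.00741), and its log2 difference of 1.55 in PEA3-null tumours did not pass (limma adjusted p = 0.0746). Probe set 93146_at read 269, 375 and 596 in wild-type tumours, 335 and 61.9 in PEA3-null tumours, and 134, 148 and 149 in normal glands. The PEA3-null samples lay on either side of the normal glands, and neither tumour group passed (log2 1.28, limma adjusted p = 0.0791, and 0.08, limma adjusted p = 0.933).

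Cldn2, a claudin that forms channels for cations, read 38.4, 49.8 and 50.8 in wild-type tumours, 33.1 and 71.0 in PEA3-null tumours, and 30.2, 32.8 and 32.3 in normal glands. All values of its probe set 93934_at were under 150, so its level was not measurable here.

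Ocln rose on 2 of its 3 probe sets, which passed the filter on low signal through tumours alone. Probe set 92907_at read 238, 315 and 230 in wild-type tumours, 324 and 383 in PEA3-null tumours, and 55.4, 69.2 and 14.4 in normal glands. It was 3.91-fold higher in wild-type tumours (log2 1.97, SE 0.38, limma adjusted p = 0.00301) and 5.17-fold higher in PEA3-null tumours (limma adjusted p = 0.00175). Probe set 112074_at followed it, with 453, 443 and 397 in wild-type tumours, 455 and 570 in PEA3-null tumours, and 136, 22.3 and 13.3 in normal glands. Its log2 differences were 2.63 (SE 0.54, limma adjusted p = 0.00327) and 2.86 (SE 0.61, limma adjusted p = 0.00375). Probe set 104786_at had another order of groups, with 57.3, 85.7 and 56.3 in wild-type tumours, 414 and 522 in PEA3-null tumours, and 212, 142 and 227 in normal glands. Wild-type tumours lay below and PEA3-null tumours above the normal glands, and neither difference from normal passed (log2 -1.19, limma adjusted p = 0.0981, and 1.16, limma adjusted p = 0.134). Over the 8 RNA samples the first pair of probe sets correlated at 0.94, and 104786_at with 112074_at at -0.04, so the 3 probe sets do not give one Ocln pattern.

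F11r, an immunoglobulin-like adhesion molecule of epithelia, endothelia, platelets and leukocytes, was read on chips A and C. Probe set 103816_at read 1071, 1407 and 1130 in wild-type tumours, 2213 and 1585 in PEA3-null tumours, and 685, 877 and 789 in normal glands. Both tumour groups lay above the normal glands, by 1.51-fold in wild-type tumours (log2 0.59, SE 0.18, limma adjusted p = 0.0397) and 2.35-fold in PEA3-null tumours (log2 1.23, SE 0.21, limma adjusted p = 0.00107). The call in wild-type tumours was lost in 9 of 20 alternatives, among them median centring of the arrays (limma adjusted p = 0.0885) and the omission of wild-type sample 2 or 3 or of any one normal sample (limma adjusted p = 0.0581 to 0.142). On chip C, 136630_i_at read 1388 and 1537 in wild-type tumours, 1255 on the PEA3-null array, and 1510, 1853 and 1334 in normal glands, with a log2 difference of -0.08 for wild-type tumours (95% interval -0.71 to 0.54, limma adjusted p = 0.879). Probe set 136631_r_at read 353 and 626 in wild-type tumours, 624 on the PEA3-null array, and 196, 141 and 116 in normal glands, and did not pass (log2 1.48, limma adjusted p = 0.0829).

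Tjp1 had the opposite direction from the claudins. Its probe set 99935_at read 364, 333 and 291 in wild-type tumours, 353 and 402 in PEA3-null tumours, and 580, 814 and 800 in normal glands. All tumour arrays were below all normal arrays. It fell by 1.07 on the log2 scale in wild-type tumours (SE 0.22, limma adjusted p = 0.00446) and by 0.89 in PEA3-null tumours (SE 0.25, limma adjusted p = 0.0214). The call in PEA3-null tumours was lost in 6 of 20 alternatives, among them the omission of PEA3-null sample 1 or of normal sample 2 or 3 (limma adjusted p = 0.0835 to 0.0943). The call in wild-type tumours was lost when the 2 normal arrays of chip A with an aborted wash record were left out (log2 -1.21, limma adjusted p = 0.0617), as was that in PEA3-null tumours (log2 -1.03, limma adjusted p = 0.12), though neither difference was smaller in size. The second Tjp1 probe set, 162298_r_at, was under 150 on all 8 arrays and was not tested.

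**Figure D2:**
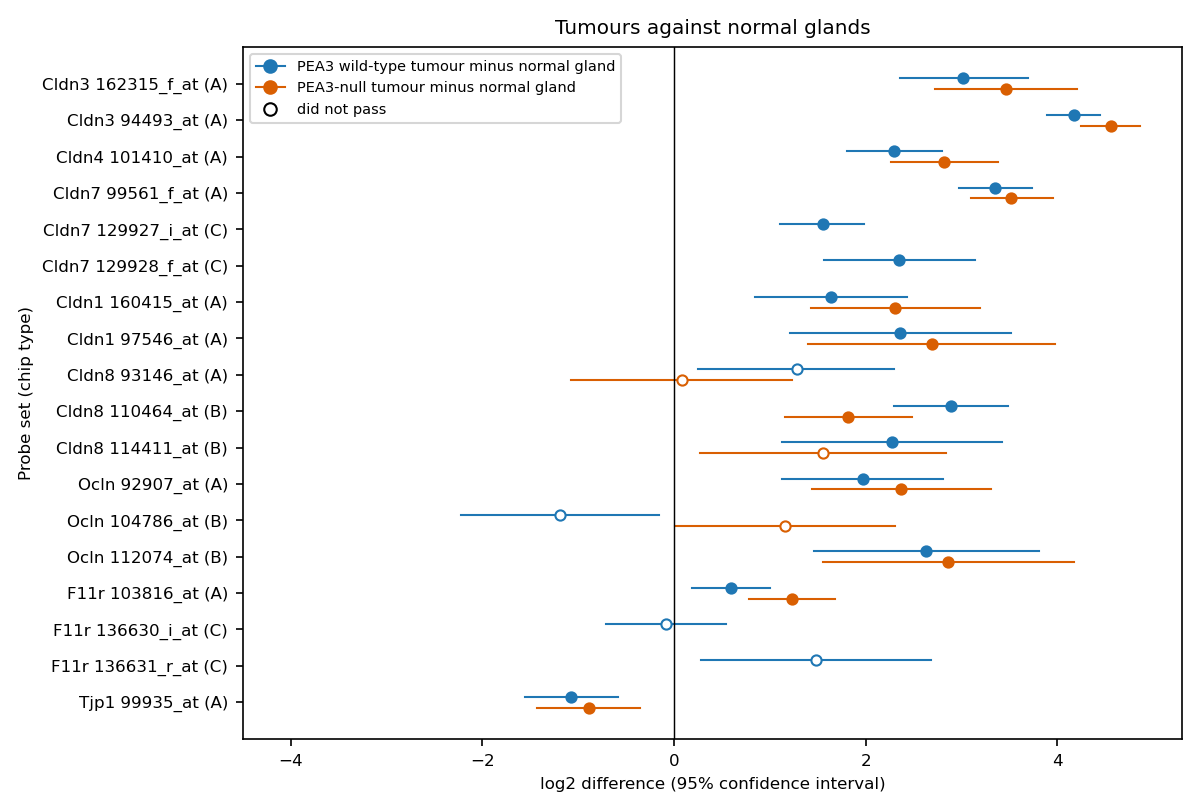
Log2 difference of each tested member probe set from normal glands with its 95% confidence interval, for wild-type tumours and for PEA3-null tumours (chips A and B). Filled points passed an adjusted p under 0.05. Cldn3 94493_at lies farthest to the right at 4.17 and 4.56, and Tjp1 is the one member with filled points left of 0.

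Rises of the claudins were set beside those of epithelial markers in the same tumours. In wild-type tumours Krt8, a luminal keratin, rose 6.35-fold, its partner Krt18 rose 3.46-fold and Spint1, an epithelial protease inhibitor, rose 8.92-fold. Of the 10 luminal markers 6 rose, 1 fell and 3 did not pass at their brightest probe set. Those that did not pass were Krt7 (1.37-fold, limma adjusted p = 0.162), Cdh1 (1.49-fold, limma adjusted p = 0.0501) and Spint2 (1.46-fold, limma adjusted p = 0.532). The one that fell was Krt19, at 0.0231 of its normal level. At their brightest probe sets the 6 rises that passed ranged from 1.83-fold for Epcam to 8.92-fold for Spint1. That Spint1 probe set read 64.6, 30.5 and 62.2 in normal glands and passed the filter on low signal through tumours alone. Other probe sets of the same genes gave other sizes, 8.19-fold for Epcam on chip A and 11.9-fold against 2.91-fold for St14, an epithelial membrane protease. The second Spint1 probe set did not pass (log2 -0.56, limma adjusted p = 0.551). Whether the claudins rose beyond the epithelial share of the RNA was not tested.

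The other claudins did not share one direction. Of 10 tested, 2 rose in wild-type tumours, 2 fell and 6 did not pass, where 12.9% of 13883 genes were higher and 13.9% lower at their brightest probe set. The median log2 difference of the other claudins was -0.18, and that of all genes was 0. Cldn10, a claudin with channel-forming isoforms, read 4222, 1428 and 2288 in wild-type tumours and 455, 559 and 601 in normal glands, a 4.29-fold rise (limma adjusted p = 0.000606). Cldn23 rose 3.43-fold (limma adjusted p = 0.0299), with 58.1, 30.4 and 94.8 in normal glands. Cldn5, the endothelial claudin, read 15.9, 58.8 and 160 in wild-type tumours, 186 and 29.5 in PEA3-null tumours, and 568, 591 and 583 in normal glands. It fell to 0.154 of normal in wild-type tumours (limma adjusted p = 0.00422) and to 0.189 in PEA3-null tumours (limma adjusted p = 0.0144). Cldn22 fell to 0.234 of normal in wild-type tumours (limma adjusted p = 0.0279) and was under 150 on every tumour array. Cldn23 and Cldn22 thus each passed the filter only through the side where they were high, and the counts of this list are descriptive. Summed endothelial markers moved the same way as Cldn5, at 1337 to 2313 in wild-type tumours, 1619 to 1846 in PEA3-null tumours and 5860 to 6990 in normal glands, with 6 of 8 fallen in wild-type tumours and Cdh5, Tie1, Vwf and Tek under 150 on every wild-type array. The endothelial cadherin Cdh5 was 17.6-fold lower in wild-type tumours, the largest fall of these markers. Pecam1 (2.09-fold lower, limma adjusted p = 0.136) and Kdr (2.74-fold lower, limma adjusted p = 0.0989) did not pass. The part of endothelial RNA in the fall of Cldn5 was not tested.

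At their brightest probe set, of 35 other tight junction genes tested 6 rose in wild-type tumours, 10 fell and 19 did not pass. This stands beside shares of 12.9% and 13.9% over all genes, with a median log2 difference of 0.17 for the list. Over its 73 tested probe sets, 16 rose, 13 fell and 44 did not pass, with a median of 0.37. Of all tested probe sets 10.5% were higher and 10.4% lower. Afdn, counted as fallen (log2 -0.74, limma adjusted p = 0.017), rose on another probe set (log2 1.84, limma adjusted p = 0.00312). Igsf5 (JAM4), a junctional adhesion molecule, read 1447, 2248 and 1869 in wild-type tumours, 1555 and 921 in PEA3-null tumours, and 96.6, 57.4 and 45.1 in normal glands. This was a 19.3-fold rise in wild-type tumours (limma adjusted p = 1.58e-06). With every normal value under 150, this probe set passed the filter on low signal through tumours alone. Lsr (angulin-1), which marks junctions where 3 cells meet, rose 7.21-fold (limma adjusted p = 3.36e-05). Jam2, a junctional adhesion molecule of endothelium, fell to 0.0988 of normal (limma adjusted p = 0.0014), and the brightest probe set of Amotl1, of the angiomotin family, to 0.172 (limma adjusted p = 0.000534). The second Amotl1 probe set did not pass (log2 0.86, limma adjusted p = 0.413). Nor did the second Jam2 probe set (log2 -1.82, limma adjusted p = 0.0504), and the Jam2 probe set that fell was under 150 on every tumour array. The part of endothelial RNA in the falls of Jam2 and Amotl1 was not tested.

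Of 17 genes of adherens junctions, desmosomes and epithelial adhesion, 6 rose in wild-type tumours, 3 fell and 8 did not pass at their brightest probe set. The median log2 difference was 0.51, and the shares over all genes were those given above. Over the 35 tested probe sets of the list, 12 rose, 3 fell and 20 did not pass, beside 10.5% higher and 10.4% lower over all probe sets. Perp, a desmosome-associated membrane protein, rose 5.24-fold (limma adjusted p = 1.45e-05) and the plakophilin Pkp3 5.16-fold (limma adjusted p = 0.000258). The plakophilin Pkp1 fell to 0.371 of normal (limma adjusted p = 0.0402) and Ctnna1, the catenin that couples cadherins to actin, gave opposite directions on its probe sets. Its brightest, on chip A, fell to 0.446 of normal (limma adjusted p = 0.00693), while 1 on chip C, under 150 in every normal gland, rose 4.23-fold (limma adjusted p = 0.0462). The count of 3 fallen genes takes Ctnna1 at its brightest probe set, and no direction is given for the gene beyond that count. 

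**Figure D3:**
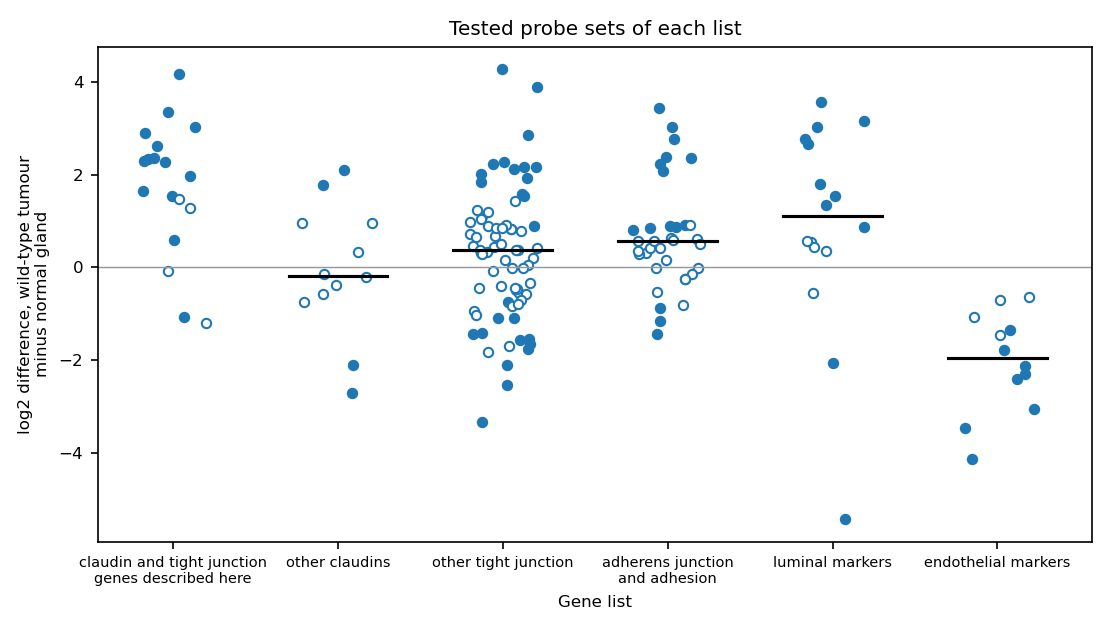
Log2 difference between wild-type tumours and normal glands for every tested probe set of 6 gene lists, one point per probe set, filled where the adjusted p was under 0.05, with the median over probe sets as a bar for each list except the genes described here, of whose 18 probe sets 7 passed the filter through tumours alone. The bar of the other claudins stands at -0.18 and that of the endothelial markers at -1.94.

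Tumours labelled PEA3-null were set against wild-type tumours to ask whether tight junction genes differ with the PEA3 label. None of the 14 member probe sets tested passed by limma, where 0.193% of 19214 probe sets were called, and 5 had an unadjusted p under 0.05, against 10.5% of all probe sets. Cldn3, Cldn4 and Cldn7 were within 1.5-fold between the labels in their means, while Cldn8 and one Ocln probe set had the widest differences. Signals did not overlap between the labels for 10 of 14 probe sets, against 22.9% of all tested. The median log2 standard deviation over chip A was 0.20 in normal glands and 0.32 in each tumour group, so the shared error makes the p-values of this comparison too small on average.

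The 3 Cldn8 probe sets had negative differences, none of which passed. For 110464_at, at 1175 and 815 against 2453, 1641 and 2264, the log2 difference was -1.07 (95% interval -1.73 to -0.41, unadjusted p = 0.00384, limma adjusted p = 0.232). For 93146_at it was -1.20 (95% interval -2.35 to -0.05, limma adjusted p = 0.451), but -2.18 without PEA3-null sample 1 and -0.21 without sample 2, and for 114411_at -0.72 (95% interval -2.0 to 0.56, limma adjusted p = 0.706). On chip B, which carries 2 of these probe sets, PEA3-null and wild-type arrays differed in scan day and chip lot, so day, lot and label cannot be told apart there. Probe set 93146_at is on chip A, where all 5 tumour arrays shared a scan day.

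Ocln 104786_at had the largest difference of all members, with 414 and 522 in the PEA3-null tumours and 57.3, 85.7 and 56.3 in wild-type tumours. Its log2 difference was 2.35 (95% interval 1.20 to 3.50, unadjusted p = 0.000685), and it did not pass the threshold (limma adjusted p = 0.137). It is on chip B, with the same overlap of label, scan day and lot. The other Ocln probe sets gave 0.40 (95% interval -0.53 to 1.34) and 0.23 (limma adjusted p = 0.93). F11r 103816_at differed by 0.64 on the log2 scale (95% interval 0.18 to 1.09, limma adjusted p = 0.295).

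Cldn3 94493_at was 12105 and 13777 in the PEA3-null tumours and 9279 to 10259 in the wild-type tumours, a log2 difference of 0.39 (95% interval 0.09 to 0.70, unadjusted p = 0.0162, limma adjusted p = 0.329). The intervals were -0.04 to 1.08 for Cldn4, -0.26 to 0.60 for Cldn7 on chip A and -0.21 to 1.55 for Cldn1 160415_at, so a difference of the size of the upper bounds was not excluded by these data. Tjp1 differed by 0.18 (limma adjusted p = 0.842). None of the 7 other claudins, 34 other tight junction genes and 17 adhesion genes tested between the labels passed either.

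**Figure D4:**
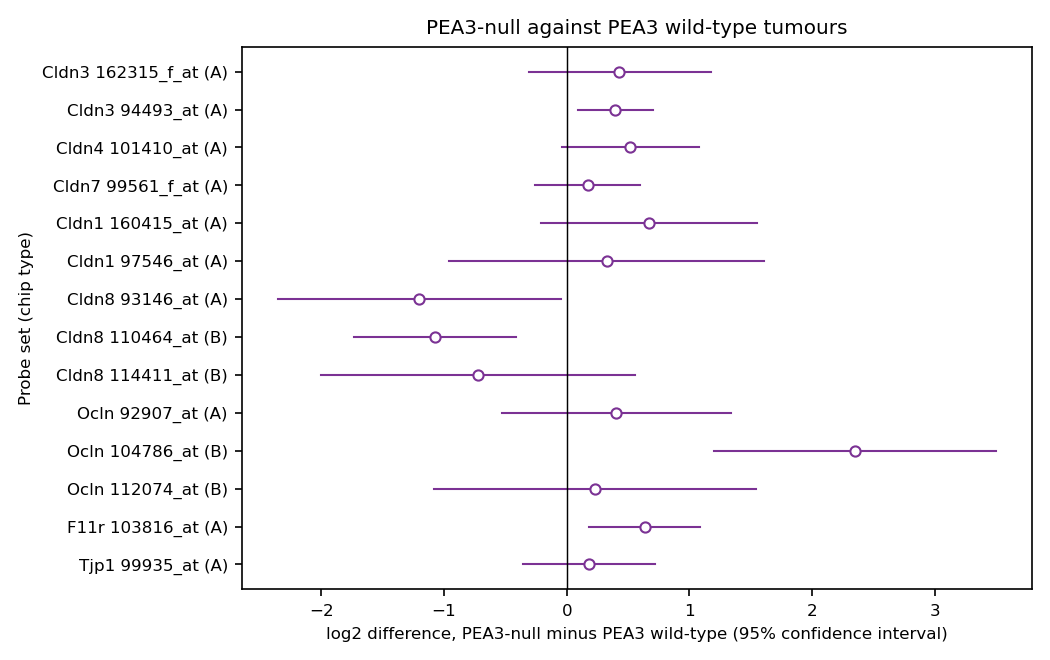
Log2 difference of PEA3-null minus wild-type tumours for the 14 member probe sets of chips A and B, with 95% confidence intervals, and all points open because none passed. The 3 Cldn8 points lie left of 0, and Ocln 104786_at lies farthest right at 2.35.

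The genes whose signal followed each member most closely were taken as those with the highest Pearson r of log2 signal on the same chip over the 8 RNA samples, which mostly reflects the gap between tumours and normal glands. For Cldn3 94493_at they were Cldn7 (0.998), Fxyd3, a regulator of the sodium pump (0.997), and Junb, a transcription factor of the AP-1 family (0.996), and 444 of 7849 probe sets reached 0.95. For Cldn4 they were Cldn3 162315_f_at (0.995), Mocos (0.994) and the transcription factor Sox4 (0.992). For Cldn8 110464_at they were Snhg14 (0.992), Rab29 (0.992) and Nbea (0.988), and for Ocln 112074_at Trim68 (0.994), Trf (0.988) and Kyat1 (0.983). Tjp1 was closest to Ap3b1 (0.993), Gys1, the muscle glycogen synthase (0.989), and Dmpk (0.986). F11r 103816_at had 7 probe sets at 0.95 or more, led by Eif2b5 (0.989), and Cldn1 160415_at had 48, led by the mitotic kinesin Kif2c (0.99).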

How the data were processed

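The authors deposited linear intensities per probe set for 22 MG-U74v2 arrays, made with MAS5 per the submitters' processing notes, which give no version. Their 2% trimmed mean was 1500.28 to 1501.06 on every array. The deposited instrument files hold text settings (other, no measurement), used only for scan day, chip lot and wash record. Annotation was the platform's, updated through RefSeq: 29131 of 36701 probe sets had 1 symbol, 724 several and 6846 none, and control probe sets were left out.

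Each array was set to a trimmed mean of 500, and the tests used log2(signal + 32). A probe set was tested with a signal of 150 or more on at least 2 arrays of its chip. limma 3.58.1 (R 4.3.3) fitted the 3 groups per chip with a variance trend, with Benjamini-Hochberg adjustment over all chips entering: A, B and C for wild-type tumours against normal glands, and A and B otherwise, since chip C had 1 PEA3-null array. The procedure was tested on simulated data. A gene's level in a list was its brightest tested probe set. Of each other list, up to 4 genes past the threshold with the largest difference between wild-type tumours and normal glands are named. Of the markers, the first 3 measured of a cell type could be named. Krt19, Spint1, Spint2, Cdh1, Epcam, St14, Afdn, Prkcz and Arhgef2 were named after their values were seen. Members, lists and tests were chosen with earlier results of these data known. The number of arrays limits the precision. Promoter letters and coordinates are RefSeq's (GRCm38.p6), and 20 of 20 member probe sets matched RefSeq.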

Additional observations from a re-analysis of the deposited data

Results flagged for a closer look

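Data outside the main comparisons of PEA3-null tumours held 3 member signals on the lone PEA3-null array of chip C that were above all normal arrays. Cldn7 129927_i_at read 19262 there, Cldn7 129928_f_at 5224 and F11r 136631_r_at 624. The remaining member probe set of chip C, F11r 136630_i_at, read 1255, below all normal arrays (1334 to 1853). Only signals above normal were flagged. The share of all chip C probe sets above every normal array was not computed, so the count of 3 only describes these signals. The main comparisons of PEA3-null tumours did not use that array, though it entered the signal filter and the fit of the 3 groups on chip C. With chip C added and the lone array taken to vary like the other groups, Cldn7 129927_i_at and 129928_f_at were above normal glands by 1.97 and 2.47 on the log2 scale (limma adjusted p = 0.000486 and 0.004), and F11r 136631_r_at did not pass (log2 1.86, limma adjusted p = 0.0891). None of the 3 passed between the tumour labels there (limma adjusted p = 0.565 to 0.95).

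Ocln 104786_at was flagged because every PEA3-null tumour lay above and every wild-type tumour below the normal glands. The difference between the tumour labels was 2.35 on the log2 scale, and it missed the threshold (limma adjusted p = 0.137).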

How the results depend on the processing

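Counts of member calls stayed within 1.5 times the reported ones under the 20 alternatives of each comparison. They were 10 to 15 against 14 for wild-type tumours, 9 to 13 against 11 for PEA3-null tumours, and 0 throughout between the tumour labels. The lowest counts for tumours against normal glands, 10 and 9, came from leaving out normal samples 1 and 2 on chip A, whose wash records were aborted, which leaves a lone normal array there, taken to have the spread of the tumour groups. That alternative was added after seeing the data. Over all probe sets, it gave 3915 calls against 5882 and 2967 against 4751. Between the labels all-probe-set calls were 37, and ranged from 3 with array weights to 239 without PEA3-null sample 1, so the background of that comparison is not a stable count; the cause was not tested. The replicate numbers did not pair the samples, with same-number correlations of -0.11 to 0.07. With the replicate block the member calls were 13, 10 and 0, and F11r 103816_at in wild-type tumours (limma adjusted p = 0.0788) and Tjp1 in PEA3-null tumours (limma adjusted p = 0.0568) lost their calls. Of single probe sets, with 1 sample left out at a time, F11r 136630_i_at in wild-type tumours ranged from -0.19 to 0.04 (without normal sample 2), Cldn8 93146_at in PEA3-null tumours from -0.90 (without PEA3-null sample 1) to 1.06, and Cldn1 97546_at between the labels from -0.24 (without wild-type sample 1) to 0.62, none of them a call. Cldn1 97546_at in both tumour groups and Cldn1 160415_at in wild-type tumours lost their calls without the arrays of the aborted washes (limma adjusted p = 0.0835, 0.0606 and 0.0606). Without the variance trend Ocln 104786_at passed in both tumour groups (limma adjusted p = 0.0232 and 0.0356), as did Cldn8 114411_at in PEA3-null tumours (limma adjusted p = 0.0457), and Cldn8 93146_at passed in wild-type tumours in 4 alternatives. Cldn3, Cldn4 and Cldn7 kept direction and call against normal glands in every alternative run on them. Signals under 150 limit Cldn2, the normal level of Cldn1 and Ocln, and the second Tjp1 probe set.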
